A study of Mus musculus with 12 samples.

Results

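Sox9, Pparg and Fgf23 were followed across 4 mouse cell types as genes tied to the cartilage, fat and bone lineages. They were found by gene name in the expression table, and they are 3 of the 99 genes analysed here and 3 of the 70 that were tested. The study sequenced mRNA from skin fibroblasts (Fibs), bone marrow mesenchymal stem cells (BMSCs), induced pluripotent stem cells (iPSCs) made from such Fibs, and mesenchymal stem cells induced from iPSCs (iMSCs), with 3 independent cultures of each and 12 libraries in all. Fibs carried the genotype label WT, came from the ear skin of adult female C57BL/6 mice and grew in high-sugar DMEM. BMSCs were also labelled WT, came from the femoral marrow and grew in low-sugar DMEM. The iPSCs carried the genotype label Reprogramming, were made with the Yamanaka factors delivered by Sendai virus, and were kept in a serum replacement medium with LIF after their colonies had formed on inactivated feeder cells. The iMSCs, also labelled Reprogramming, were taken from embryoid bodies treated with 10 ng/ml TGF-beta1 and 5 ng/ml bFGF, and then grew in low-sugar DMEM. The medium differed with the cell type, so cell type and medium cannot be told apart except between iMSCs and BMSCs. Even there, the genotype label and the earlier TGF-beta1 and bFGF treatment cannot be told apart from cell type. Neither the number of iPSC clones nor the number of animals is given. P-values measure only the spread between these cultures.

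SOX9 is a transcription factor that commits mesenchymal progenitors to cartilage and switches on the genes of the cartilage matrix. PPARG is a nuclear receptor that drives precursor cells to become fat cells, and in marrow stromal cells the fat and bone fates compete. FGF23 is a hormone that osteocytes and osteoblasts release into the blood and that lowers phosphate reabsorption in the kidney. Mesenchymal stem cells are defined in part by their ability to form cartilage, fat and bone in culture, and the libraries were made from cells that had not been put through such a differentiation assay.

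Sox9 (ENSMUSG00000000567) lies at chr11:112782224-112787760 on the plus strand and has 1 transcript of 4135 bases. Pparg (ENSMUSG00000000440) lies at chr6:115360951-115490399 on the plus strand and has 4 transcripts of 835 to 2125 bases in the table. Fgf23 (ENSMUSG00000000182) lies at chr6:127072902-127081408 on the plus strand and has 1 transcript of 1814 bases. These coordinates are those of GRCm38 (GENCODE M21). An antisense gene, Gm44079, lies within Pparg at chr6:115451815-115464990 on the minus strand, and whether strand was used in counting is not given, so reads of both genes could have been counted together. The Pparg values sum over its transcripts, so the form that starts upstream and the form that starts downstream and encodes the longer protein of fat cells cannot be told apart.

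Sequences upstream of Fgf23 and Pparg are shown. Both genes were called as higher in Fibs than in BMSCs and iPSCs, as was Sox9, for which no promoter window was available. The Fgf23 stretch and the first of the Pparg stretches end just before a RefSeq start, and the other Pparg stretch ends before the first base of Pparg in the table, upstream of the first RefSeq start at 115361144. They come from RefSeq on GRCm38.p6, plus strand, and capitals mark matches to the letters CCAAT.
Fgf23, chr6:127072652-127072901: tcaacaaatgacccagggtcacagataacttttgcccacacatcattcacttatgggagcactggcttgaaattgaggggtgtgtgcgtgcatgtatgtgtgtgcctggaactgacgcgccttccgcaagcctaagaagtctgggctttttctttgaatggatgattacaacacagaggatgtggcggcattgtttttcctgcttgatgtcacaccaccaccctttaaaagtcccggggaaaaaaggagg
Pparg, downstream start, chr6:115421816-115422065: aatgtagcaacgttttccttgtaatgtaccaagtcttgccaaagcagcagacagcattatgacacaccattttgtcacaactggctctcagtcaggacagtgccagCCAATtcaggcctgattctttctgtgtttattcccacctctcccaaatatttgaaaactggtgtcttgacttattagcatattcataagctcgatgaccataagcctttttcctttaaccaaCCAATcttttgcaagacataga
Pparg, before the first transcript, chr6:115360894-115360950: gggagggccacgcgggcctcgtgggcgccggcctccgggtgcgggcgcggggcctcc
The Fgf23 stretch had a GC content of 48.4% with 6 CG dinucleotides, and the downstream Pparg stretch 40.8% with 2. Over 32851 mouse promoter windows of 250 bases, the median GC content was 52.4% (interquartile range 45.2 to 61.2%) and the median number of CG dinucleotides was 6 (2 to 16). The 57 bases before the first Pparg transcript had a GC content of 87.7% with 9 CG dinucleotides, a count over a shorter length than the windows. The 250-base window before the start at 115361144, which begins with these bases, had 82.4% with 38. The 2 printed Pparg stretches were thus unlike each other in base composition. Searched on both strands, TATAAA was found in 12.4% of all windows, CCAAT in 33.8% and GGGCGG in 32.7%. The Fgf23 stretch held none of these letters, and the downstream Pparg stretch held 2 matches to CCAAT and none to the other motifs. RefSeq gives Pparg a further pair of starts, whose 250-base windows were searched but are not printed. The window before the start at 115362349 held 4 matches, to TATAAA, to CCAAT and more than once to GGGCGG, and the window before the start at 115361144 held 1, to GGGCGG. A match is a description of the letters only.

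Library totals, computed from the ratio of count to FPKM (fragments scaled to transcript length and library total), lay between 66114058 and 77355820 counts, and the 99 genes hold 0.365 to 0.485% of them. Counts came in steps of 4 (61 of the 77 values from 1 to 13 were 4, 8 or 12), so 4 counts were taken as 1 fragment in the counting intervals, which cover counting error alone. Cdh1, which encodes E-cadherin of pluripotent and epithelial cells, stood at 138 ± 5.83 FPKM in iPSCs (SD, n = 3) and at no more than 0.672 in any other library. At these low levels it was called as higher in iMSCs (0.519 ± 0.186 FPKM) than in BMSCs (0.0926 ± 0.0428, log2 fold change 2.46, SE 0.52, edgeR adjusted p = 0.0249) and than in Fibs (0.0744 ± 0.0405, log2 fold change 2.77, SE 0.58, adjusted p = 0.00973). Its part in the members' values in iMSCs was not tested. This was the only 1 of 13 listed pluripotency markers among the genes analysed. Of 17 mesenchymal markers 2 were analysed, Itga5 and Egfl6, so the labels of the BMSCs and iMSCs could be checked on few genes. The leukocyte marker Itgb2, the only 1 of 12 analysed, lay between 0.363 and 1.19 FPKM over all 12 libraries. The iMSC replicate 2 library stood apart from its group. The chi-square of its counts against the other iMSC libraries was 507 and 544 per degree of freedom, against 13.8 to 42.4 for every other pair of replicates. The members' iMSC comparisons are given with and without it.

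**Figure D1:**
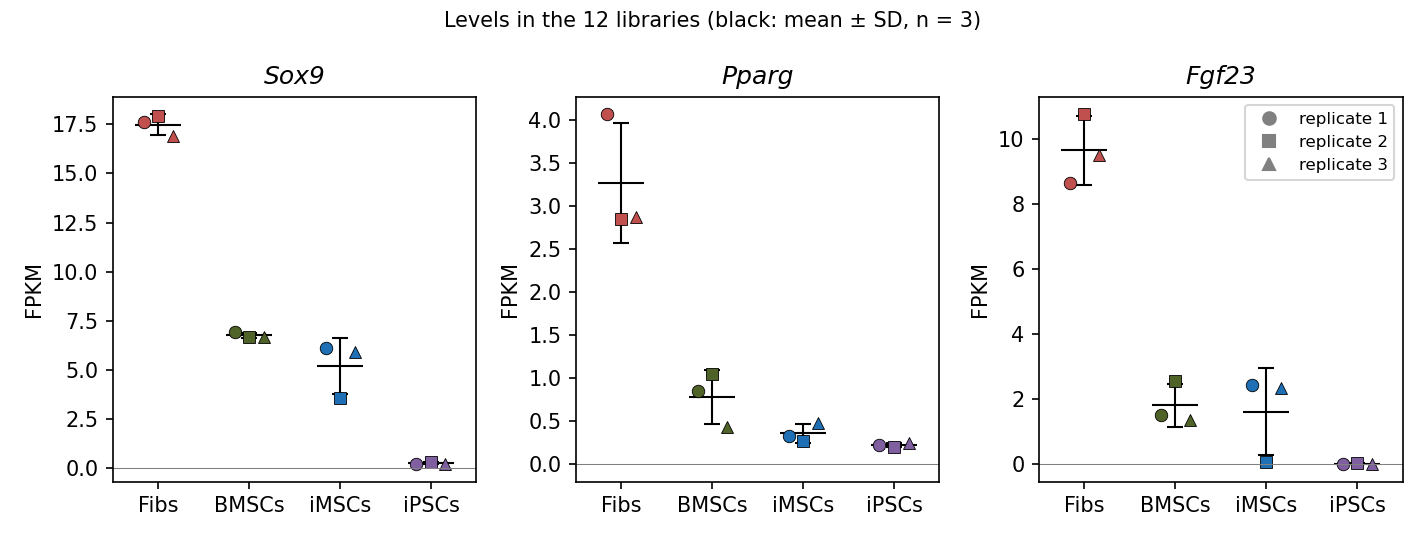
FPKM of Sox9, Pparg and Fgf23 (y axis, a linear scale for each gene) in the 4 cell types (x axis), 1 point per library with its replicate number as the symbol, and the mean ± SD of 3 libraries in black. Fibs are highest for each gene, and iMSC replicate 2 is the lowest iMSC library for each gene, at 0.0676 FPKM for Fgf23 against 2.42 and 2.36.

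The 3 members moved together in that each was higher in Fibs than in BMSCs, and higher in BMSCs than in iPSCs, while none separated iMSCs from BMSCs past the threshold. A call rests on edgeR's quasi-likelihood test with Benjamini-Hochberg adjustment over the 70 genes, and needs both an adjusted p under 0.05 and a log2 fold change beyond 1 in either direction. Between iMSCs and iPSCs 2 of the 3 members were called, both higher in iMSCs, while 54.3% of the 70 genes were called in either direction and 17.1% as higher in iMSCs. Between iMSCs and Fibs 2 of 3 were called, both lower in iMSCs, with 38.6% of all genes called and 24.3% as lower. Between iMSCs and BMSCs none of the 3 was called by edgeR (0 also by DESeq2 and by limma, and 1 at an unadjusted p under 0.05, which 30% of all genes reached), and here 5.71% of all genes were called. Between BMSCs and Fibs all 3 were called as lower in BMSCs, where 25.7% of genes were called and 17.1% as lower. Between BMSCs and iPSCs all 3 were called as higher in BMSCs, where 48.6% were called and 18.6% as higher. Between iPSCs and Fibs all 3 were called as lower in iPSCs, where 54.3% were called and 21.4% as lower. The members met the filter on low values (1 FPKM in at least 3 libraries) through other cell types than iPSCs. No iPSC library reached 1 FPKM for any member. Their calls against iPSCs are therefore partly built into their being tested, as are those of Pparg against Fibs. The FPKM ranges of the cell types were compared in the same way. For all 3 members the ranges were apart between iMSCs and iPSCs, where this held for 80% of tested genes, between iMSCs and Fibs (72.9%), between BMSCs and Fibs (78.6%), between BMSCs and iPSCs (82.9%) and between iPSCs and Fibs (91.4%). Between iMSCs and BMSCs the ranges were apart for Sox9 alone, against 42.9% of tested genes. Ranges that were apart could still have overlapping 95% counting intervals. For Pparg those of every iMSC library overlapped those of the iPSC libraries, and for Fgf23 those of iMSC replicate 2 did. Those of BMSC replicate 3 and iPSC libraries overlapped for Pparg. For Sox9 those of iMSC replicates 1 and 3 overlapped those of the BMSC libraries. The comparisons with a shared cell type use the same libraries, so these counts are not separate pieces of evidence. The median log2 fold change over all tested genes lay between -0.29 and 0.57 in the 6 comparisons. Scaling by median ratios or TMM moved that median by 0.33 and 0.42 between iMSCs and iPSCs, by 0.19 and 0.31 between BMSCs and iPSCs and by -0.43 and -0.46 between iPSCs and Fibs, and no member changed direction under either.

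Sox9 was highest in Fibs, lower in BMSCs and iMSCs, and near the bottom of the scale in iPSCs. In Fibs its level was 17.6, 17.9 and 16.9 FPKM in replicates 1, 2 and 3 (mean 17.5 ± 0.538, SD, n = 3). In BMSCs it was 6.91, 6.68 and 6.70 FPKM (6.76 ± 0.131). The Fib and BMSC libraries did not overlap, and in both the replicates lay close together. In iMSCs Sox9 was at 6.14, 3.58 and 5.93 FPKM (5.22 ± 1.42). In iPSCs it was at 0.204, 0.302 and 0.229 FPKM (0.245 ± 0.0505), from 61, 93 and 74 counts. Every iMSC library lay below every BMSC library and above every iPSC library. By rank of mean FPKM among the 99 genes, Sox9 was number 18 in Fibs, 36 in BMSCs, 38 in iMSCs and 76 in iPSCs.

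By edgeR, Sox9 was called in 5 of its 6 comparisons. It was 21.1-fold higher in iMSCs than in iPSCs (log2 fold change 4.40, SE 0.32, adjusted p = 4.71e-05) and 27.3-fold higher in BMSCs than in iPSCs (4.77, SE 0.16, adjusted p = 1.13e-07). Fibs exceeded BMSCs 2.59-fold (log2 fold change of BMSCs over Fibs -1.37, SE 0.05, adjusted p = 6.47e-08). Fibs exceeded iMSCs 3.35-fold (log2 fold change of iMSCs over Fibs -1.74, SE 0.22, adjusted p = 0.00207). The step between Fibs and iPSCs was the largest for Sox9, at 70.7-fold (log2 fold change of iPSCs over Fibs -6.14, SE 0.16, adjusted p = 8.65e-08). Between iMSCs and BMSCs, the neighbours in its order, Sox9 was not called, at a log2 fold change of -0.37 (SE 0.22, 95% interval -0.90 to 0.15, adjusted p = 0.283). The FPKM ranges of these 2 cell types did not overlap for Sox9, a pattern shared by 42.9% of the 70 genes tested. Without iMSC replicate 2 the log2 fold change against BMSCs was -0.16 (adjusted p = 0.115), and against Fibs and iPSCs it was -1.53 and 4.61.

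Pparg was the lowest of these genes in Fibs, and outside Fibs only BMSC replicate 2 reached 1 FPKM. Its level in Fibs was 4.07, 2.85 and 2.88 FPKM (3.27 ± 0.697, SD, n = 3), where replicate 1 stood above the other two. In BMSCs it was 0.851, 1.06 and 0.436 FPKM (0.781 ± 0.316). No BMSC library reached the lowest Fib library, while the BMSC libraries spread among themselves by more than their mean difference from iMSCs. In iMSCs Pparg was at 0.328, 0.267 and 0.483 FPKM (0.359 ± 0.111), from 65, 57 and 104 counts. In iPSCs it was at 0.229, 0.207 and 0.248 FPKM (0.228 ± 0.0207), from 49, 46 and 57 counts. The highest iMSC library passed the lowest BMSC library, whereas every iMSC library stood above every iPSC library, and iMSC replicate 2 was only just above the highest of them. Pparg met the filter on low values (1 FPKM in at least 3 libraries) through 4 libraries, which were those of Fibs and BMSC replicate 2, so a difference from Fibs is partly built into its being tested.

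Pparg was called in the 3 comparisons with Fibs and between BMSCs and iPSCs. Fibs exceeded BMSCs 4.17-fold (log2 fold change of BMSCs over Fibs -2.06, SE 0.33, edgeR adjusted p = 5.94e-04) and iMSCs 8.98-fold (log2 fold change of iMSCs over Fibs -3.17, SE 0.33, adjusted p = 0.00192). Fibs exceeded iPSCs 14.2-fold (log2 fold change of iPSCs over Fibs -3.83, SE 0.27, adjusted p = 7.60e-06). BMSCs exceeded iPSCs 3.40-fold (1.76, SE 0.42, adjusted p = 0.00523). The neighbours iMSCs and BMSCs did not separate past the threshold, at a log2 fold change of -1.11 (SE 0.44, 95% interval -2.17 to -0.04, unadjusted p = 0.0438, adjusted p = 0.153 by edgeR). With all 12 libraries in 1 fit the adjusted p was 0.0375, and over every alternative tried for this comparison it ran from 0.0375 to 0.443. The neighbours iMSCs and iPSCs were likewise not called, at 0.66 (SE 0.39, 95% interval -0.29 to 1.61, edgeR adjusted p = 0.175). With TMM scaling the latter was 1.06 (adjusted p = 0.0326), and over its alternatives the adjusted p ran from 0.0205 to 0.397. Without iMSC replicate 2 the log2 fold change of Pparg was -2.996 against Fibs (adjusted p = 1.30e-04), -0.94 against BMSCs (adjusted p = 0.103) and 0.83 against iPSCs (adjusted p = 0.0506).

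Fgf23 was at 8.66, 10.8 and 9.52 FPKM in Fibs (9.65 ± 1.06, SD, n = 3) and at or near 0 in iPSCs. In BMSCs its level was 1.50, 2.57 and 1.37 FPKM (1.81 ± 0.657), with replicate 2 above the other two. The Fib libraries lay well above the BMSC libraries. In iMSCs it was at 2.42, 0.0676 and 2.36 FPKM (1.62 ± 1.34), from 291, 9 and 310 counts. The exact 95% counting interval of iMSC replicate 2 was 0.00975 to 0.229 FPKM, and those of replicates 1 and 3 were 1.898 to 3.048 and 1.861 to 2.943. The iMSC libraries thus fell into a pair within the BMSC range and 1 library close to the iPSCs, and the mean of 1.62 describes none of them. In iPSCs Fgf23 had 0, 4 and 0 counts, which is 0, 0.0262 and 0 FPKM, while a count of 0 allows up to 0.0928 FPKM in replicate 1 and 0.0855 in replicate 3 (3 fragments per library). No expression in iPSCs was therefore detectable at this depth beyond a single step of 4 counts.

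Against iPSCs, Fgf23 was called in the 3 comparisons, and since the iPSC level rests on 4 counts, the ratio of counts per library total is given with its 95% counting interval. The ratio was 978 for Fibs (175 to 38649), 183 for BMSCs (32.4 to 7269.8) and 163 for iMSCs (28.7 to 6442). Without iMSC replicate 2 the iMSC ratio was 242 (42.7 to 9599.6). The edgeR adjusted p was 6.45e-06 for Fibs, 4.15e-05 for BMSCs and 0.00893 for iMSCs. By limma on log2(FPKM + 1) the last of these was 0.0551, which misses the threshold, and it ran from 7.74e-06 to 0.0551 over its alternatives. BMSCs were 5.32-fold below Fibs (log2 fold change -2.41, SE 0.26, adjusted p = 4.91e-05 by edgeR). For iMSCs against Fibs the log2 fold change was -2.58 (SE 1.05, 95% interval -5.13 to -0.03), and every iMSC library lay below every Fib library, but the adjusted p was 0.0846 by edgeR. That comparison turned on 1 library and on the test. Without iMSC replicate 2 it was -2.01 with an adjusted p of 5.51e-05, DESeq2 gave 0.0103 and limma 0.00875 on all 6 libraries, and over its alternatives the adjusted p ran from 5.51e-05 to 0.177. Between iMSCs and BMSCs the log2 fold change was -0.17 with a wide interval (SE 1.01, 95% interval -2.60 to 2.27, edgeR adjusted p = 0.942). Its sign turned to 0.40 without iMSC replicate 2 (adjusted p = 0.274) and to 0.17 without BMSC replicate 2 (adjusted p = 0.944).

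**Figure D2:**
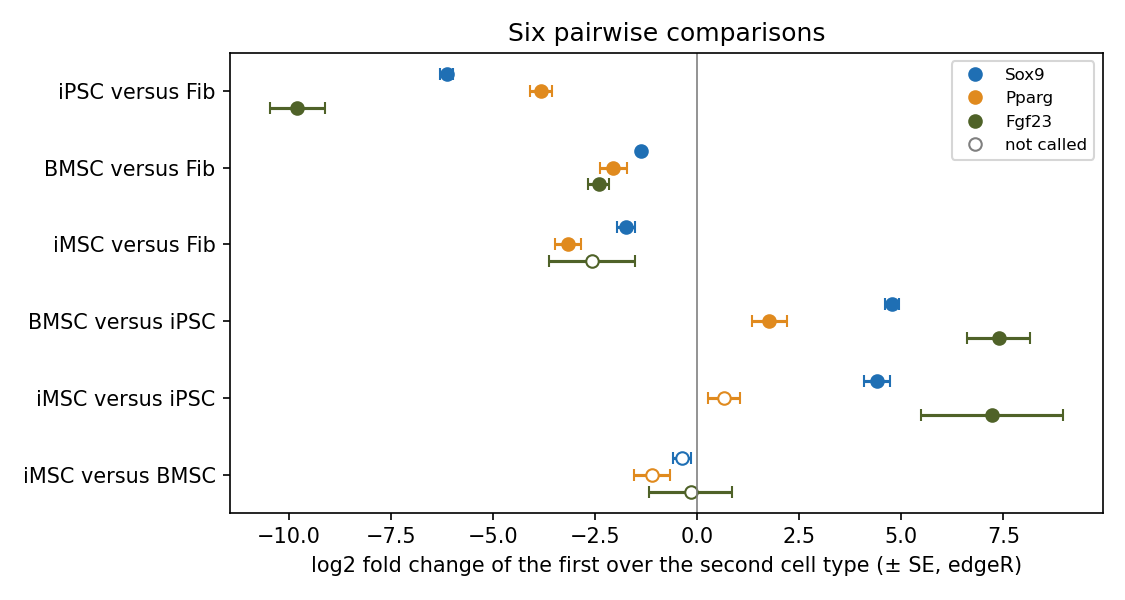
Log2 fold change (x axis) of the first over the second cell type for Sox9, Pparg and Fgf23 in the 6 pairwise comparisons (y axis). Bars are 1 SE computed from the fold change and F statistic of edgeR, and open circles are values that were not called. The bars are not counting intervals, which were wide for Fgf23 against iPSCs. The 3 values of iMSCs against BMSCs are open, as are those of Pparg in iMSCs against iPSCs (0.66) and of Fgf23 in iMSCs against Fibs (-2.58), and the others are filled.

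The members also differed in how far iMSC replicate 2 fell from the other iMSC libraries. Fgf23 was 35.4-fold lower there than the mean of replicates 1 and 3 (2.39 FPKM). Sox9 was 1.68-fold lower than its mean of 6.04 FPKM, and Pparg was 1.52-fold lower than its mean of 0.406 FPKM. The counting intervals of Fgf23 and Sox9 in this library did not reach those of the other iMSC libraries, and that of Pparg (0.147 to 0.446 FPKM) did. On the log2(FPKM + 1) scale the deviation was -1.67 for Fgf23, -0.62 for Sox9 and -0.15 for Pparg, against a median of -0.14 over the 70 genes and a range of -2.63 to 1.12. The added 1 shrinks differences at low FPKM, as for Pparg, whose fold was close to that of Sox9. These deviations therefore do not rank the members by fold. Fgf23 had the third lowest deviation, after Egfl6, a secreted matrix protein with EGF repeats, and Mx1, an interferon-induced GTPase, which was named after its value was seen. In all, 7 of the 70 genes deviated by more than 1 in this library, 5 of them downward, whereas no gene differed by more than 0.74 between replicates 1 and 3. Egfl6 stood at 99.5, 14.0 and 84.7 FPKM in iMSC replicates 1, 2 and 3, and Itga5, an integrin chain that binds fibronectin, at 79.4, 177 and 83.2. The 2 mesenchymal markers thus moved in opposite directions in this library, and the part that cell makeup plays in its low Fgf23 was not tested. In bulk RNA, fewer cells that carry a transcript and less transcript per cell cannot be told apart.

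**Figure D3:**
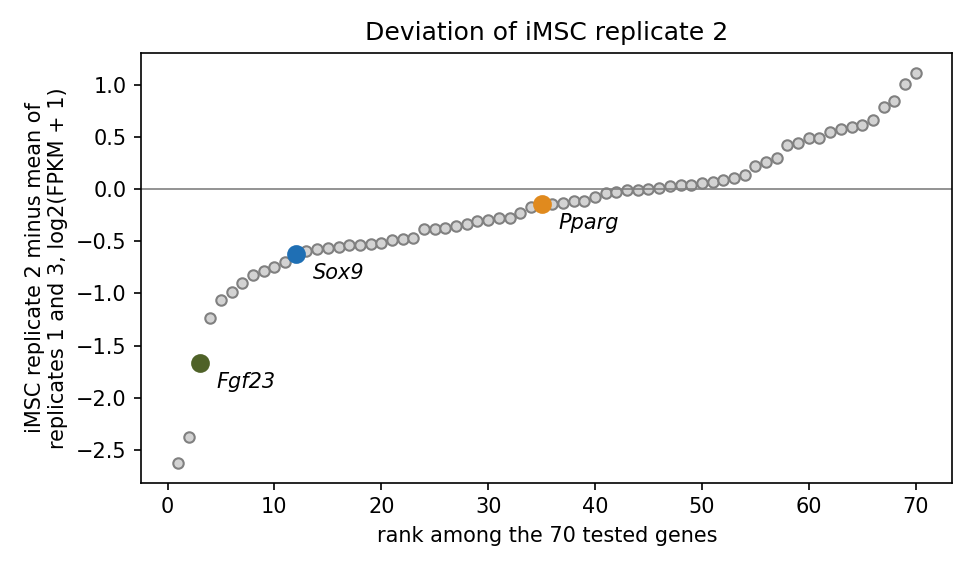
Difference of iMSC replicate 2 from the mean of iMSC replicates 1 and 3 on the log2(FPKM + 1) scale (y axis) for the 70 tested genes in order of that difference (x axis, rank from the lowest), with Sox9, Pparg and Fgf23 in colour. Fgf23 has rank 3 at -1.67, Sox9 rank 12 at -0.62 and Pparg rank 35 at -0.15, near the median of -0.14. The added 1 shrinks the difference of Pparg, which lies below 1 FPKM in the iMSC libraries.

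By mean level, each of the 3 members had the order Fibs, BMSCs, iMSCs, iPSCs. Of the 70 tested genes, 5 (7.14%) had this order out of 24 possible ones, the others being Cav2, a caveolin, and Klf6, a zinc finger transcription factor. Fibs had the highest mean for 22.9% of tested genes, and iPSCs the lowest for 25.7%. The step between BMSCs and iMSCs in this order was past the threshold for none of the 3 members, and without iMSC replicate 2 it turned for Fgf23. Relative to each other the levels were not constant. The ratio of Sox9 to Pparg FPKM was 4.33 to 6.28 in Fibs, 6.32 to 15.4 in BMSCs, 12.3 to 18.7 in iMSCs and 0.892 to 1.46 in iPSCs. The ratio of Sox9 to Fgf23 was 1.66 to 2.04 in Fibs and 2.60 to 4.88 in BMSCs, and it was 2.53, 53.0 and 2.52 in iMSC replicates 1, 2 and 3.

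Among tested genes other than the members, the genes with the pattern most like each member were taken by Pearson's r on log2(FPKM + 1) over the 12 libraries. This is a description in which the points share cell types and libraries. For Sox9 they were Cav2 (r = 0.99, Spearman's rho = 0.94), Scpep1 (0.97 and 0.84) and Tom1l2 (0.95 and 0.84). For Pparg they were Ccnd2 (0.92 and 0.48), Acvr1b (0.89 and 0.57) and Cav2 (0.83 and 0.93). For Fgf23 they were Cav2 (0.93 and 0.87), Acvrl1 (0.89 and 0.87) and Acvr1b (0.89 and 0.71). Cav2 was in each of these lists, at 13.8 ± 1.41 FPKM in Fibs, 7.57 ± 0.454 in BMSCs, 5.59 ± 1.32 in iMSCs and 1.72 ± 0.0828 in iPSCs (SD, n = 3 each). The low rho of Ccnd2 with Pparg goes with a Ccnd2 level that was high in Fibs and alike elsewhere. Between members, r was 0.80 for Sox9 and Pparg, 0.92 for Sox9 and Fgf23 and 0.91 for Pparg and Fgf23.

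Few partners of these genes were among those analysed. Of 28 listed osteogenic genes 2 were among the 99, Fgf23 and Acvrl1, of 28 adipogenic genes Pparg and Klf6, and of 20 chondrogenic genes and 20 SOX family members only Sox9. Acvrl1, a type I receptor of the TGF-beta family, stood at 20.3 ± 6.81 FPKM in Fibs, 6.47 ± 0.971 in BMSCs, 10.1 ± 2.24 in iMSCs and 1.77 ± 0.233 in iPSCs. Both osteogenic genes were called as higher in iMSCs and in BMSCs than in iPSCs, and both as lower in BMSCs and in iPSCs than in Fibs. Against Fibs, Acvrl1 was called as lower in iMSCs (log2 fold change -1.01, SE 0.28, edgeR adjusted p = 0.0230). Unlike the members, Acvrl1 had a higher mean in iMSCs than in BMSCs, at a log2 fold change of 0.64 that was not called (adjusted p = 0.0865). Klf6 had 32.6 ± 0.974 FPKM in Fibs and 22.4 ± 0.427 in iPSCs and passed the fold threshold in none of the 6 comparisons, so of the adipogenic genes Pparg alone was called. The other TGF-beta family receptor of 14 listed, Acvr1b, was at 38.7 ± 1.19 FPKM in Fibs and between 15.6 and 18.2 on average elsewhere, and was called in the 3 comparisons with Fibs. Of 29 FGF ligands and receptors, Fgf6 was analysed beside Fgf23 and had 0 or 4 counts in every library.

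Of 26 Wnt ligands and targets 4 were among the 99 genes and 3 were tested, none of them called between iMSCs and BMSCs. Between iPSCs and Fibs 2 were called as higher in iPSCs and 1 as lower, and 2 were called as lower in BMSCs than in iPSCs. Axin2, a negative regulator and target of Wnt signalling, was highest in iPSCs at 2.10 ± 0.196 FPKM, where Sox9 was lowest, and lay at 0.875 ± 0.118 in Fibs. Wnt9a, a ligand active in joint formation, was also highest in iPSCs at 2.89 ± 0.113 FPKM. Tbx4, a hindlimb transcription factor and 1 of 21 listed patterning genes that was tested, split the cell types in another way from the members. It was at 7.27 ± 0.181 FPKM in BMSCs and 7.04 ± 2.15 in iMSCs, against 1.11 ± 0.309 in Fibs and 1.78 ± 0.220 in iPSCs. Of 7 neural crest and glia markers Ngfr was tested, and it was at 10.95 ± 0.144 FPKM in iPSCs and at no more than 0.223 in any other library.

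Genes beside Pparg and Fgf23 on chromosome 6 did not all move as they did. Within 1 Mb of Fgf23 are Ccnd2 at 43.8 kb, Fgf6 at 44.7 kb and Ndufa9 at 223.8 kb, and Mkrn2 is 111.5 kb from Pparg. No analysed gene lies within 1 Mb of Sox9. Ccnd2, a D-type cyclin of the G1 phase, shared the high level in Fibs, with 58.7 ± 3.37 FPKM there, 12.9 ± 0.364 in BMSCs, 13.1 ± 4.39 in iMSCs and 13.8 ± 0.412 in iPSCs. It did not share the drop to near 0 in iPSCs, since BMSCs against iPSCs gave a log2 fold change of -0.09 for Ccnd2 (adjusted p = 0.0838). Ndufa9, a subunit of mitochondrial complex I, was lowest in Fibs at 24.9 ± 1.21 FPKM. Mkrn2, a ubiquitin ligase, was also lowest in Fibs, at 3.54 ± 0.448 FPKM, and highest in iPSCs, at 5.996 ± 0.200. Its mean order was the opposite of that of Pparg. Its log2 fold change of iPSCs over Fibs was 0.76 (edgeR adjusted p = 4.34e-04), under the fold threshold.

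**Figure D4:**
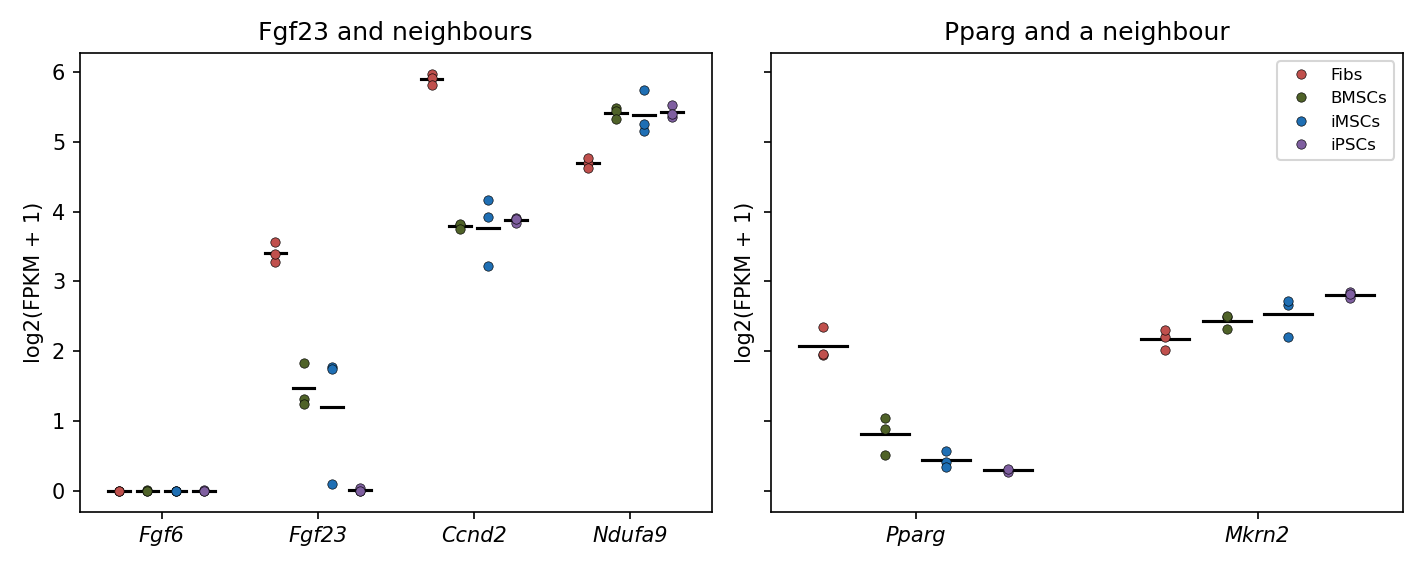
Log2(FPKM + 1) (y axis) of Fgf23 and Pparg and genes within 1 Mb of them on chromosome 6 (x axis), 1 point per library with the group mean as a bar. Ccnd2 is high in Fibs like Fgf23 and level in the other cell types, while Mkrn2 and Ndufa9 are lowest in Fibs.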

How the data were processed

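RNA from 3 cultures each of Fibs, BMSCs, iMSCs and iPSCs (12 libraries) was sequenced from oligo(dT)-selected mRNA. The submitters' processing notes name cutadapt 1.9, HISAT2 2.0.4, StringTie 1.3.4d and mm9. The members' deposited coordinates equal those of GENCODE M21 on GRCm38. FPKM values deposited by the authors were made with StringTie and Ballgown and account for transcript length and library total. Counts deposited by the authors are whole numbers without normalization, and no source used here says how they were made. Columns of the authors' own comparisons were not used.

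Library totals (66114058 to 77355820 counts) were computed from count, FPKM and transcript length over 7 to 9 single-transcript genes with at least 500 counts (spread within a library at most 0.0924%) and set as offsets. edgeR 4.0.16 in R 4.3.3 was fitted for each comparison on its 6 libraries, over the 70 genes that reached an FPKM of 1 in 3 or more libraries. The other 29 genes were not tested. DESeq2 1.42.0, limma 3.58.1, other scalings, filters, thresholds, a replicate block and leaving out each library were alternatives. By rule, genes other than the members were named as list members or as the 3 nearest patterns, and outside that rule Mkrn2 and Ndufa9 were named for their position. The members and lists were chosen with earlier results of these data known. The check for paired replicate numbers is given with the alternatives.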

Additional observations from a re-analysis of the deposited data

How the results depend on the processing

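Of 300 values of the 18 member fold changes under the alternatives, 288 kept their direction and their side of the threshold, 8 passed it only under the alternative, 2 no longer passed it and 2 turned sign. The number of members called fell to 1 between iMSCs and iPSCs with limma on log2(FPKM + 1), fell to 1 between iMSCs and Fibs with an FPKM of at least 5 (where Pparg was not tested) and with a log2 fold change over 2, and rose to 1 between iMSCs and BMSCs with all 12 libraries in 1 fit. It rose to 3 between iMSCs and iPSCs with TMM scaling, and between iMSCs and Fibs with the settings named next for Fgf23. It fell to 2 with an FPKM of at least 5 in each of the remaining comparisons, with a log2 fold change over 2 in BMSCs against Fibs and against iPSCs, and with limma on log2(FPKM + 1) in BMSCs against iPSCs. Fgf23 in iMSCs against Fibs passed with limma on log2(FPKM + 1) and on log2(FPKM + 0.1), both DESeq2 scalings (-2.58 and -2.66), all 12 libraries and without iMSC replicate 2 (-2.01). Fgf23 in iMSCs against BMSCs turned to 0.40 without iMSC replicate 2 and to 0.17 without BMSC replicate 2, and ran from -0.58 to 0.40 as each library was left out. Pparg in BMSCs against iPSCs had a log2 fold change of 0.52 on log2(FPKM + 1), under the fold threshold, where the pseudocount shrinks low values. The cause of the other changes was not tested.

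The number of all genes called with a log2 fold change over 2 was 21 for iMSCs against iPSCs, 10 for iMSCs against Fibs, 2 for iMSCs against BMSCs, 9 for BMSCs against Fibs, 22 for BMSCs against iPSCs and 25 for iPSCs against Fibs. With the adjusted p alone it was 12 for iMSCs against BMSCs, 53 for BMSCs against Fibs, 55 for BMSCs against iPSCs and 61 for iPSCs against Fibs. BMSCs against Fibs gave 11 with limma on log2(FPKM + 1), and iMSCs against BMSCs gave 8 with all 12 libraries. Leaving out 1 library at a time gave 1 to 5 genes for iMSCs against BMSCs (4 with all), 1 each without BMSC replicates 1 and 3 and 2 each without iMSC replicate 3 and BMSC replicate 2.

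The replicate numbers are shared between cell types, but samples of the same number did not deviate together (correlations of -0.39 to 0.44, over 0.1 for all 3 numbers in no comparison). What a number marks is not given, and with 3 libraries per cell type these correlations cannot decide it. With the number as a replicate block, 1 gene was called for iMSCs against BMSCs in place of 4, and no member changed its call. Depth limits Pparg in iMSCs and iPSCs (46 to 104 counts), Sox9 in iPSCs (61 to 93 counts) and Fgf23 in iPSCs (0 to 4 counts).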
